A study of Mus musculus with 20 samples.

Results

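The highest amount of resistant potato starch (RPS) in a feeding study was compared with none, using RNA sequencing of the mouse proximal colon (PC). The comparison takes the 5 libraries of mice on 10% RPS and the 5 of mice on 0% RPS from the 20 libraries of the study, which also fed 2 and 5% RPS. All mice were C57BL/6, an inbred strain, and began at 3 weeks of age on the Total Western Diet (TWD), a purified diet with the nutrient balance of an average American intake. After 6 weeks on the TWD, one group stayed on it without added starch (0% RPS) and the other received the TWD with 10% of its weight as raw potato starch, both for 3 further weeks. The tissue was a 1 cm piece of the whole colon wall, starting 0.5 cm below the cecum, so it holds epithelium, muscle, nerve and immune cells together. Each library came from 1 mouse.

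Raw potato starch resists digestion in the small intestine and reaches the cecum and colon, where bacteria ferment it to short-chain fatty acids such as butyrate. The lining of the PC meets those bacteria directly: it secretes mucus, antimicrobial proteins and hydrogen peroxide, absorbs salt and fermentation products, and senses microbes through interferon and cell death pathways. Beneath it, fibroblasts and smooth muscle supply Wnt, hedgehog and bone morphogenetic protein signals and move the gut contents.

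The 10 libraries held 24160095 to 32871160 counts over 12701 genes. Levels are given below as normalised counts (counts divided by a size factor for sequencing depth), always in the order of replicate 1 to 5, and they compare libraries for 1 gene, not genes with each other. A gene was called changed when its fold was at least 1.5 and its DESeq2 adjusted p at most 0.05. A ± after a log2 fold change (10% against 0% RPS, in log2 units) is its standard error (SE). All adjusted p values are from DESeq2 unless edgeR is named, and positions are whole gene spans on GRCm39 in GENCODE M39. Replicate 2 of 0% RPS stood apart from its diet: its mean distance to the other 0% RPS libraries was 38.5 on the variance-stabilised scale, compared with 21.5 to 27.4 for the other 9 libraries within their diets. In this library the 8 smooth muscle markers summed to 280219 normalised counts, the highest of the 10 (131273 to 221048 at 10% RPS), and the 8 markers of colon epithelium to 326518, the lowest (535641 to 771356 at 10% RPS). In a piece of whole wall, fewer cells of a type cannot be told apart from less RNA per cell.

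At 10% RPS 113 of the 12321 genes tested were changed (0.917%), 66 higher (0.536%) and 47 lower (0.381%). With edgeR's quasi-likelihood test 40 genes were changed (0.323%), 28 higher and 12 lower, and 28 of the 66 and 11 of the 47 were among them. The changes were mostly of middle size: without the fold threshold 578 genes (4.69%) passed, and of the called genes 39 of the higher and 30 of the lower genes changed by less than 2-fold, 23 and 13 by 2- to 4-fold, and 4 and 4 by 4-fold or more. All 5 libraries of 10% RPS lay outside the range of 0% RPS for 35 of the 66 higher and 14 of the 47 lower genes, where 1.37% and 1.18% of all genes tested did so upwards and downwards. The call used these same libraries, so called genes separate more often by that choice. Here and for the single genes below, a lack of overlap describes the values and is no added support for a call. When each of the 10 libraries was left out in turn, 34 of the higher and 12 of the lower genes were called in all 10 fits. Leaving out replicate 2 of 0% RPS ended the call of 12 higher and 16 lower genes, and the total without it was 201 (129 higher, 72 lower). The total was 67 without replicate 5 of 0% RPS, 68 without replicate 3 of 10% RPS and 62 without replicate 5 of 10% RPS. Of the 12 higher genes, H2-Q1, Muc13, Ceacam1, Trpm6 and Tmem253 lost the call on the fold alone. The sample numbers of 3 libraries stand apart from the rest, namely replicates 4 and 5 of 10% RPS and 1 library of 2% RPS, with none of 0% RPS. Without these 3 libraries 67 genes were called, and not all of them were among the 113. Of the 111 changed genes that are named, 50 kept the call and 61 lost it. Among the genes called in all 10 fits, Dusp26, Tacr2, Col23a1, Ecm2, Coq8a, Sptssb, Slc2a6, Upp1, Sprr2a2, Plet1, Plet1os, Ido1, Duox2, Mal and Wfdc18 lost it, with adjusted p of 0.0541 to 0.141. The 5 largest rises (Reg3b at 4.06, Reg3g at 3.46, Reg3a at 2.13, Ceacam12 at 2.02 and Duoxa2 at 1.90 on the log2 scale) and the 5 largest falls (Igkv2-109 at -3.77, Apoa1 at -2.81, Igkv10-94 at -2.58, Angptl7 at -2.09 and Hoxa9 at -1.83) are not given library by library. Without replicate 2 of 0% RPS Angptl7 was not called (log2 fold change -0.85, adjusted p = 0.303), nor was Hoxa9 (log2 fold change -0.70, adjusted p = 0.0921). The 42 other genes called in all 10 fits, 31 higher and 11 lower, are given with the value of every library, grouped by what their products do.

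**Figure D1:**
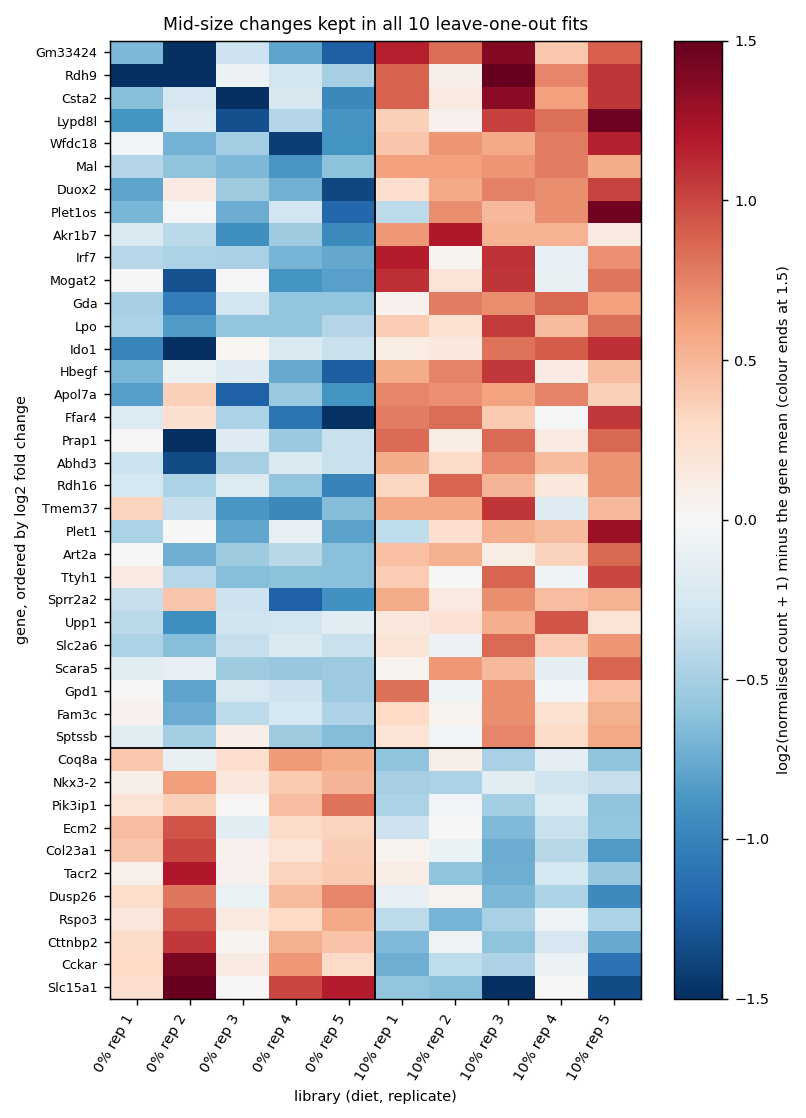
Heat map of the 42 genes other than the 5 largest rises and falls that were called in all 10 fits, in each of the 10 libraries (columns), as log2(normalised count + 1) minus the gene's mean over the 10 libraries. The 31 higher genes are in the upper block and the 11 lower genes in the lower block, and the column of 0% RPS replicate 2 is the reddest of 0% RPS for 9 of the 11 lower genes.

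Antimicrobial and peroxide genes were among the rises. Of the 25 antimicrobial and peroxide defence genes tested, 8 were higher and none lower at 10% RPS (0.536% of all genes were higher). In this list 19 had a positive log2 fold change, and the median was 0.40, compared with -4.8e-05 over all genes tested. The members of this and every later list were chosen with earlier results of these data known. A list's share of called genes and its median may in part reflect that choice and are no test against all genes. For each later list the shares over all genes are the same, 0.536% higher and 0.381% lower. With edgeR 3 of the 25 were called, and without the 3 libraries numbered apart 4 were, Reg3g, Duox2, Duoxa2 and Sprr2a2 not being called. Besides Reg3a, Reg3b and Reg3g, the lectins that kill bacteria, producers and users of hydrogen peroxide were among the 8. The edgeR adjusted p was 0.0564 for Reg3a, 0.0557 for Reg3b and 0.0918 for Reg3g, and Reg3g was called in 6 of the 10 fits that leave out 1 library. Lpo (chr11:87697253-87719369), lactoperoxidase, which uses hydrogen peroxide to make bactericidal oxidants, stood at 612, 469, 561, 565, and 623 normalised counts at 0% RPS and 1108, 992, 1753, 1178, and 1501 at 10% RPS. Lpo did not overlap between the diets and varied little at 0% RPS, and its log2 fold change was 1.21 ± 0.16 (DESeq2 adjusted p = 2.59e-10, edgeR adjusted p = 0.00247). Duox2 (chr2:122109728-122128930), the dual oxidase that makes the peroxide at the epithelial surface, stood at 2103, 3949.6, 2518, 2212, and 1408 normalised counts at 0% RPS and 4320.4, 5409, 6148, 5887, and 7326 at 10% RPS. Duox2 was higher in every 10% RPS library than in any 0% RPS library, with replicate 2 the highest of 0% RPS, and rose by 1.25 ± 0.31 log2 units (DESeq2 adjusted p = 0.00518, edgeR adjusted p = 0.0385). Without the 3 libraries numbered apart Duox2 was not called (log2 fold change 1.12, adjusted p = 0.0629). Its maturation factor Duoxa2 also rose (log2 fold change 1.90, adjusted p = 0.019, edgeR adjusted p = 0.0704), was called in 6 of the 10 fits that leave out 1 library, and had an adjusted p of up to 0.0878 in them.

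Lypd8l (chr11:58499030-58506901), a relative of Lypd8, a surface protein that keeps flagellated bacteria off the epithelium, stood at 782, 1271, 581, 1068, and 785 normalised counts at 0% RPS and 1864, 1524, 2961, 2567, and 3996 at 10% RPS. Lypd8l separated the diets, though replicate 2 of 10% RPS was close to the highest 0% RPS library, and its log2 fold change was 1.52 ± 0.24 (DESeq2 adjusted p = 8.94e-07, edgeR adjusted p = 0.0105). Lypd8 itself was at 133341 ± 13109 normalised counts at 0% RPS and 165103 ± 18225 at 10% RPS (mean ± SD, n = 5) and under the fold threshold (log2 fold change 0.31, adjusted p = 0.0331). Wfdc18 (chr11:83599841-83602174), of the whey acidic protein family of protease inhibitors, stood at 98.7, 61.4, 70.9, 37.4, and 53.9 normalised counts at 0% RPS and 136, 161, 151, 174, and 226 at 10% RPS. Wfdc18 did not overlap between the diets and rose by 1.40 ± 0.35 log2 units (DESeq2 adjusted p = 0.00514, edgeR adjusted p = 0.0599). Csta2 (chr16:36041838-36077813), a stefin that inhibits cysteine proteases, stood at 19.7, 26.03, 7.27, 26.3, and 15.6 normalised counts at 0% RPS and 58.4, 34.4, 81.4, 48.4, and 66.7 at 10% RPS. Csta2 was higher in all 5 libraries of 10% RPS than in any of 0% RPS at low counts, with a log2 fold change of 1.6 ± 0.37 (DESeq2 adjusted p = 0.0021, edgeR adjusted p = 0.0385). Sprr2a2 (chr3:92123106-92164031), a small proline-rich protein of the epithelial surface, stood at 253, 430.1, 259, 139, and 171 normalised counts at 0% RPS and 474, 354, 522, 443, and 465 at 10% RPS. Sprr2a2 overlapped because replicate 2 of 0% RPS was above replicate 2 of 10% RPS, and its log2 fold change was 0.85 ± 0.21 (DESeq2 adjusted p = 0.00578, edgeR adjusted p = 0.0564). Its transcripts share 94% of their 50-base stretches with its near copies, so reads may have been counted for the wrong member. Prss27, a serine protease, was also higher (log2 fold change 1.38, adjusted p = 0.033) and lost its call without replicate 2 of 0% RPS (log2 fold change 1.24, adjusted p = 0.056). In the list of epithelial proteases and inhibitors Wfdc18, Csta2 and Prss27 were the 3 higher of 24, and none was lower (median 0.10). Serpinb1a, an inhibitor of neutrophil proteases with the smallest adjusted p of the uncalled members, was at 8834 ± 915 normalised counts at 0% RPS and 11785 ± 311 at 10% RPS (mean ± SD, n = 5) (log2 fold change 0.42, adjusted p = 0.000358).

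Irf7 had the largest rise of the interferon-stimulated genes called. Of 39 tested, 3 were higher and none lower, where 0.536% of all genes were higher and 0.381% lower. In this list 31 had a positive log2 fold change, and the median was 0.18 (0.19 without replicate 2 of 0% RPS). Irf7 was the only 1 called with edgeR and without the 3 libraries numbered apart. The same held without replicate 5 of 0% RPS, replicate 3 of 10% RPS or replicate 5 of 10% RPS. Irf7 (chr7:140842619-140846398), the transcription factor that drives the type I interferon response, stood at 2512, 2427, 2414, 2084, and 1985 normalised counts at 0% RPS and 7641, 3479.9, 7146, 3099.7, and 5414 at 10% RPS. Irf7 did not overlap between the diets, lay within a narrow band at 0% RPS, and fell into 3 high and 2 lower libraries at 10% RPS, with a log2 fold change of 1.23 ± 0.20 (DESeq2 adjusted p = 1.21e-06, edgeR adjusted p = 0.0105). The high libraries were replicates 1, 3 and 5, which were also the highest of 10% RPS for Mogat2, Gpd1, Prap1, Fcho1 and Gfap described below. These rises are thus not independent of each other, and the cause of the split was not tested. Other rises, such as Gda and Mal, did not show it. Zbp1, a sensor of Z-form nucleic acid that starts necroptosis, was at 133, 297, 255, 255, and 210.5 normalised counts at 0% RPS and 252, 436, 515, 629, and 552 at 10% RPS. Zbp1 overlapped through replicate 1 of 10% RPS, the lowest there, and rose by 1.05 ± 0.29 log2 units (DESeq2 adjusted p = 0.0138, edgeR adjusted p = 0.0789). Without the 3 libraries numbered apart it was not called (log2 fold change 0.80, adjusted p = 0.162). Ifit1, which binds foreign RNA, was at 236, 262, 389, 307, and 322 normalised counts at 0% RPS and 386, 527, 602, 409, and 491 at 10% RPS. Ifit1 overlapped only where replicate 1 of 10% RPS met replicate 3 of 0% RPS, with a log2 fold change of 0.67 ± 0.21 (DESeq2 adjusted p = 0.0427, edgeR adjusted p = 0.113), and without replicate 2 of 0% RPS it was not called (log2 fold change 0.62, adjusted p = 0.0648). Other members were under the fold threshold: Lgals3bp, a secreted glycoprotein (log2 fold change 0.36, adjusted p = 0.0246) and Trim25, a ubiquitin ligase of RNA sensing (log2 fold change 0.26, adjusted p = 0.0395), while Sp100, of nuclear bodies, had the opposite sign (log2 fold change -0.32, adjusted p = 0.0468).

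Ido1 (chr8:25074150-25087025), the enzyme that turns tryptophan into kynurenine and responds to interferon gamma, stood at 171, 112, 348, 291, and 269.6 normalised counts at 0% RPS and 368, 380.4, 598, 639.5, and 726 at 10% RPS. Ido1 separated the diets by a narrow margin, with replicates 1 and 2 low at 0% RPS, and its log2 fold change was 1.18 ± 0.26 (DESeq2 adjusted p = 0.00124, edgeR adjusted p = 0.0385). Without the 3 libraries numbered apart it was not called (log2 fold change 0.91, adjusted p = 0.0854). In the fit of all 20 libraries Ido1 was the only 1 of 18 interferon gamma responsive genes called (14 positive, median 0.16). In the list of major histocompatibility complex class I presentation, 1 of 21 was called (0.917% of all genes were). This was H2-Q1, a non-classical class I heavy chain, at 593, 357, 695, 752.6, and 536 normalised counts at 0% RPS and 1078, 965, 965, 783.9, and 893 at 10% RPS. H2-Q1 did not overlap between the diets (log2 fold change 0.67 ± 0.17, DESeq2 adjusted p = 0.00755, edgeR adjusted p = 0.0638), and 31% of its 50-base stretches occur in other genes, 15% in the same sense and the rest on the opposite strand. The classical heavy chain H2-D1 rose less (log2 fold change 0.40, adjusted p = 0.000555), under the fold threshold. None of the 12 class II genes was called, 6 were positive and 6 negative, and the smallest adjusted p was that of Ctsf, a lysosomal protease (log2 fold change -0.56, adjusted p = 0.000837).

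Of 21 inflammasome and necroptosis genes, 3 were higher and none lower, where 0.536% of all genes were higher. The 3 were Zbp1, Casp4 and Ripk3, and the list had a median of 0.10 (0.028 without replicate 2 of 0% RPS) with 14 positive. With edgeR, without the 3 libraries numbered apart, or without replicate 5 of either diet, 1 member of the list was called. Casp4, the caspase that senses bacterial lipopolysaccharide inside cells, was at 634, 828, 858, 775, and 759 normalised counts at 0% RPS and 955, 1411, 1225, 1419.5, and 948 at 10% RPS. Casp4 did not overlap between the diets, with a log2 fold change of 0.63 ± 0.15 (DESeq2 adjusted p = 0.00359, edgeR adjusted p = 0.0431). Ripk3, the kinase that carries out necroptosis with Mlkl, was at 869, 767, 830.0, 700.1, and 575 normalised counts at 0% RPS and 1046, 1059, 1065, 1000.0, and 1468 at 10% RPS. Ripk3 did not overlap between the diets either, its highest library being replicate 5 of 10% RPS, and the log2 fold change was 0.59 ± 0.15 (DESeq2 adjusted p = 0.00821, edgeR adjusted p = 0.0599). Without the 3 libraries numbered apart Ripk3 was not called (log2 fold change 0.50, adjusted p = 0.0796). Mlkl itself was not called in the fit of all 20 libraries (log2 fold change 0.34, adjusted p = 0.185). Apol7a (chr15:77272419-77283435), of the apolipoprotein L family, stood at 253, 577, 193, 305, and 242 normalised counts at 0% RPS and 748.1, 724.8, 685, 754, and 574 at 10% RPS. Apol7a overlapped only at the bottom of 10% RPS, where replicate 5 was just under replicate 2 of 0% RPS, and its log2 fold change was 1.15 ± 0.24 (DESeq2 adjusted p = 0.000412, edgeR adjusted p = 0.0308). Leaving out that 0% RPS library moved Apol7a to 1.49 log2 units (adjusted p = 6.29e-12).

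The promoters of the interferon-linked genes are shown because Irf7, Zbp1, Ifit1 and Ido1 rose and a short motif is known for the control of interferon genes. The interferon-stimulated response element binds factors of the Irf family and was searched here as GAAA, any 2 bases and GAAA, on both strands, in the 250 bases before the annotated start (GENCODE M39, GRCm39). It was found before 2.98% of all 12682 genes of the table with a position, before 14 of the 39 interferon-stimulated genes (35.9%), before 5 of the 66 genes higher at 10% RPS (7.58%), and before 3 of the 47 lower (6.38%). A match is a description of letters and not of binding. Among the interferon-linked rises it occurred before Zbp1, Ifit1 and Ido1, whose sequences follow 5′ to 3′ on the strand of the gene, with the matches in capitals (in Zbp1 they overlap).
Zbp1 (chr2:173060725-173060974, minus strand): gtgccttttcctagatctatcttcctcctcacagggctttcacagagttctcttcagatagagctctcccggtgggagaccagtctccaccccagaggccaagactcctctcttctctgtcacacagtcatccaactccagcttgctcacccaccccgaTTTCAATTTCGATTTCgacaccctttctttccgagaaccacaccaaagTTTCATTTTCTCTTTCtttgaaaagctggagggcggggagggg
Ifit1 (chr19:34618021-34618270, plus strand): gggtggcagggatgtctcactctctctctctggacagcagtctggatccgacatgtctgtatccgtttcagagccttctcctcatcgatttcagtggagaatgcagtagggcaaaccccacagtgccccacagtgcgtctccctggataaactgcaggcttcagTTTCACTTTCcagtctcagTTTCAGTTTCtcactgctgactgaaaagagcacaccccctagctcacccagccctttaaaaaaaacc
Ido1 (chr8:25087026-25087275, minus strand): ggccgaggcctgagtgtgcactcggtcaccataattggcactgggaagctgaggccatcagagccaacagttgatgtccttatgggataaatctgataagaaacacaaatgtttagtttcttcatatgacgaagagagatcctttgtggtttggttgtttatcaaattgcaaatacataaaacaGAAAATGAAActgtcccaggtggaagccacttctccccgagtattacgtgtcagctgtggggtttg
Zbp1 held 4 matches, Ifit1 2 and Ido1 1. The window of Irf7 held none, although Irf7 had the largest fold change of the 3 interferon-stimulated genes called. The other 2 higher genes with a match were Ttyh1 and Art2a, and the 3 lower ones were Rspo3, Col23a1 and Pln.

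Of 23 genes tested in the list of Ceacam, Ly6 and related surface proteins, 7 were higher and none lower (0.536% of all genes were higher). In this list 21 were positive, and the median log2 fold change was 0.35. Its members too were chosen with earlier results of these data known, so its share and median are no test against all genes. The 7 include Plet1os, a noncoding transcript of the Plet1 locus and not a surface protein, and Lypd8l, which is also in the antimicrobial list. Mal (chr2:127475142-127498615), a proteolipid of apical membrane transport, stood at 1144, 1017, 971, 843, and 1009 normalised counts at 0% RPS and 2378, 2376, 2459.8, 2639, and 2286 at 10% RPS. Mal lay within a narrow band in each diet with a wide gap between them, and rose by 1.28 ± 0.35 log2 units (DESeq2 adjusted p = 0.0121, edgeR adjusted p = 0.065). Without the 3 libraries numbered apart it was not called (log2 fold change 1.27, adjusted p = 0.058). Plet1 (chr9:50405817-50420299), a surface protein held by a lipid anchor, stood at 3821, 5349, 3109.9, 4886, and 3039 normalised counts at 0% RPS and 4082, 6309, 7778, 7388, and 12929 at 10% RPS. Plet1 overlapped, since replicate 1 of 10% RPS was within the 0% RPS range and replicate 5 was far above the rest, and its log2 fold change was 0.93 ± 0.22 (DESeq2 adjusted p = 0.00324, edgeR adjusted p = 0.0531). Plet1 was not called without the 3 libraries numbered apart (log2 fold change 0.58, adjusted p = 0.141). Plet1os (chr9:50398632-50432747), annotated on the other strand of the same locus, stood at 376, 589, 359, 494, and 265 normalised counts at 0% RPS and 459, 980.4, 845, 978, and 1654 at 10% RPS. Plet1os was likewise lowest in replicate 1 and highest in replicate 5 of 10% RPS, with a log2 fold change of 1.24 ± 0.26 (DESeq2 adjusted p = 0.000619, edgeR adjusted p = 0.0314), and 24.8% of its stretches are the reverse of Plet1. Whether counting used the strand is not stated, so reads of these 2 genes may have been mixed. Ceacam1, an adhesion molecule that damps immune signals, was at 55168, 55522, 67818, 65037, and 52229.8 normalised counts at 0% RPS and 76485, 84163, 90456, 98388, and 99369 at 10% RPS. Ceacam1 did not overlap between the diets, and its log2 fold change of 0.60 ± 0.13 (DESeq2 adjusted p = 0.000944, edgeR adjusted p = 0.034) was just over the threshold. Upk1b, a tetraspanin of the uroplakins, was higher with overlap (log2 fold change 0.62, adjusted p = 0.0482).

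Of 33 mucin and mucin glycosylation genes, 2 were higher and none lower (0.536% of all genes were higher). In this list 28 were positive and the median was 0.37 (0.33 without replicate 2 of 0% RPS). Muc13, a mucin that spans the membrane, was at 46309, 36225, 41471, 43546, and 38118 normalised counts at 0% RPS and 57078, 65127, 67074, 62228, and 59551 at 10% RPS. Muc13 did not overlap between the diets and had small spread in both (log2 fold change 0.60 ± 0.11, DESeq2 adjusted p = 3.28e-05, edgeR adjusted p = 0.0195). Fut2, the fucosyltransferase that puts terminal fucose on surface glycans, was at 3977, 4349, 6166, 4128, and 4186 normalised counts at 0% RPS and 6126, 9179.5, 6821, 8450.4, and 9332 at 10% RPS. Fut2 overlapped through replicate 3 of 0% RPS, far above the other 4, with a log2 fold change of 0.81 ± 0.23 (DESeq2 adjusted p = 0.019, edgeR adjusted p = 0.0896) and 0.79 log2 units (adjusted p = 0.0636) without replicate 2. It was also not called without the 3 libraries numbered apart (log2 fold change 0.69, adjusted p = 0.123). Muc2, the gel-forming mucin, was at 418309 ± 141173 normalised counts at 0% RPS and 586489 ± 163506 at 10% RPS (mean ± SD, n = 5) and was not called (log2 fold change 0.49, adjusted p = 0.124), whereas Gcnt3, which branches mucin glycans (log2 fold change 0.39, adjusted p = 0.000139), and Muc17, a mucin of the brush border (log2 fold change 0.37, adjusted p = 0.00165), passed the p threshold and not the fold. All 6 goblet cell markers were positive and none was called, and their summed level was 453473 to 763409 normalised counts at 0% RPS and 556243 to 1009070.0 at 10% RPS. The part of goblet cell number in the mucus genes was not tested. Among tight junction genes 1 of 24 was higher: Cldn2, the claudin that forms a pore for sodium and water, at 2977 to 6937 normalised counts at 0% RPS and 5989.8 to 13626 at 10% RPS, with overlap (log2 fold change 0.71, adjusted p = 0.0208).

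**Figure D2:**
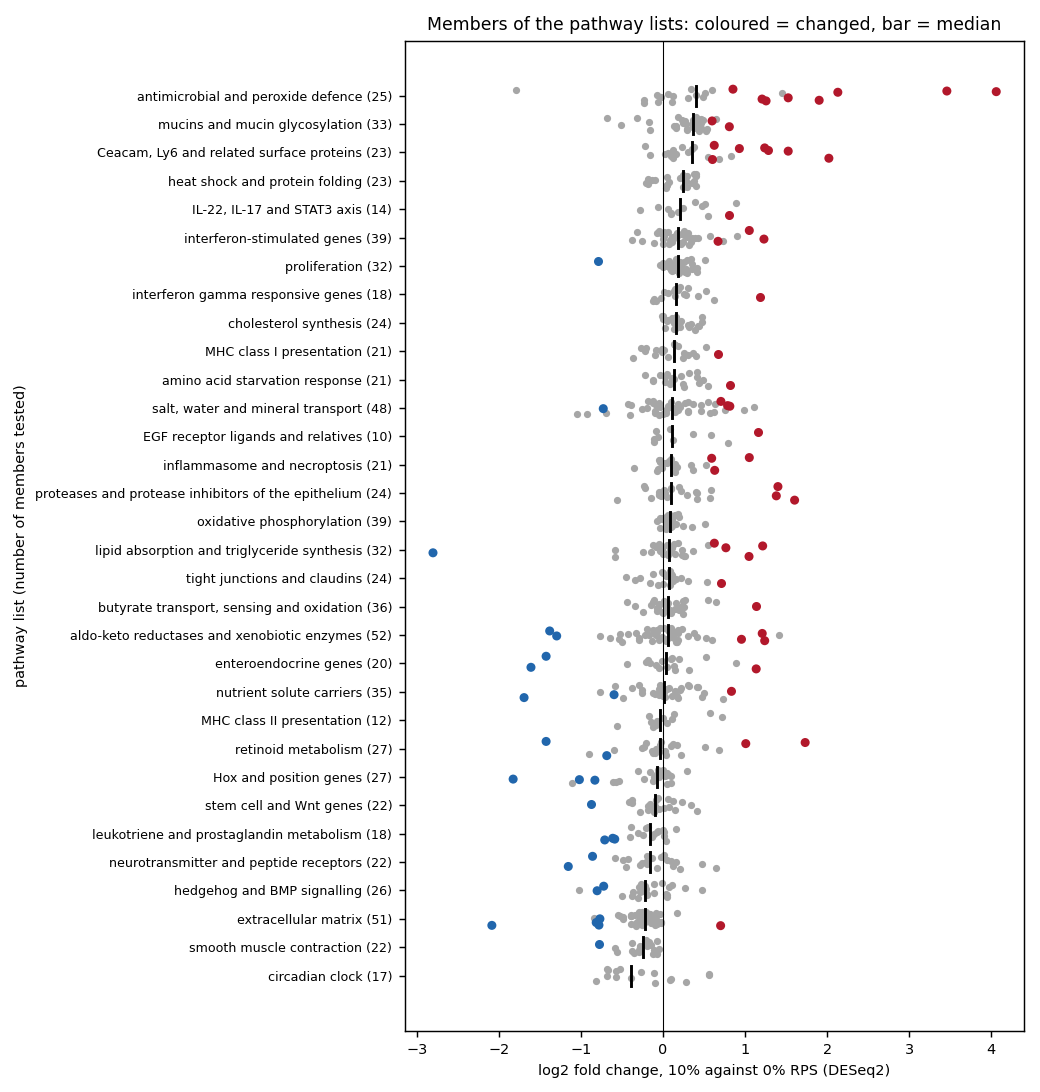
Log2 fold change at 10% against 0% RPS for the tested members of the 32 pathway lists (points, without 2 called genes that are not named), ordered by the list's median (black bars), with genes called higher in red and called lower in blue. The antimicrobial, mucin and Ceacam lists have the highest medians, and the circadian and smooth muscle lists the lowest. The lists were chosen with earlier results of these data known.

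Enzymes and carriers of fat handling were among the rises. Of 32 genes for lipid absorption and triglyceride synthesis, 4 were higher and 1 lower (median 0.073, 19 positive). Over all genes 0.536% were higher and 0.381% lower. Mogat2 (chr7:98868291-98887830), which re-esterifies absorbed monoacylglycerol, stood at 208, 84.3, 207, 112, and 119 normalised counts at 0% RPS and 449.7, 240.5, 444, 195, and 368 at 10% RPS. Mogat2 overlapped only where replicate 4 of 10% RPS was below replicates 1 and 3 of 0% RPS, with a log2 fold change of 1.21 ± 0.26 (DESeq2 adjusted p = 0.000742, edgeR adjusted p = 0.0314). Gpd1 (chr15:99615396-99622893), which makes the glycerol phosphate backbone, stood at 1869, 1065, 1576, 1490.1, and 1263 normalised counts at 0% RPS and 3272, 1762, 3000.3, 1789, and 2523 at 10% RPS. Gpd1 had 2 libraries of 10% RPS within the 0% RPS range and 3 above it, and the log2 fold change was 0.77 ± 0.18 (DESeq2 adjusted p = 0.00377, edgeR adjusted p = 0.0512). An antisense gene covers 36.9% of its stretches. Abhd3 (chr18:10642092-10707195), a lipase of phospholipids with medium-chain acyl groups, stood at 261, 128, 230.0, 280.3, and 258 normalised counts at 0% RPS and 479.9, 399.7, 541, 453, and 522 at 10% RPS. Abhd3 did not overlap between the diets, and replicate 2 was the lowest in each, with a log2 fold change of 1.05 ± 0.22 (DESeq2 adjusted p = 0.000661, edgeR adjusted p = 0.0308). Sptssb (chr3:69726871-69780651), a subunit of the enzyme that begins sphingolipid synthesis, stood at 3786, 2984, 4529, 2928, and 2709 normalised counts at 0% RPS and 4866, 4114, 7049, 5126, and 6349.7 at 10% RPS. Sptssb overlapped at replicate 2 of 10% RPS and rose by 0.70 ± 0.17 log2 units (DESeq2 adjusted p = 0.00324, edgeR adjusted p = 0.0473). Prap1 (chr7:139673176-139677114), a secreted protein of the gut epithelium that binds triglyceride, stood at 665, 198, 576, 448, and 523 normalised counts at 0% RPS and 1185, 709, 1186, 715.1, and 1197 at 10% RPS. Prap1 separated the diets by a narrow margin, and its log2 fold change was 1.05 ± 0.24 (DESeq2 adjusted p = 0.00194, edgeR adjusted p = 0.0431). Sec14l2, a tocopherol-binding protein, was also higher (log2 fold change 0.62, adjusted p = 0.0139). In the opposite direction Abca1, the exporter of cholesterol, passed the p threshold and not the fold (log2 fold change -0.58, adjusted p = 0.0037).

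Ffar4 (chr19:38085307-38105287), the receptor for long-chain fatty acids on enteroendocrine and epithelial cells, stood at 759, 1034, 632, 409, and 313 normalised counts at 0% RPS and 1493, 1572, 1156, 858, and 1829 at 10% RPS. Ffar4 overlapped through replicate 4 of 10% RPS and varied widely in both diets, and its log2 fold change was 1.13 ± 0.25 (DESeq2 adjusted p = 0.00113, edgeR adjusted p = 0.0385), or 1.39 log2 units (adjusted p = 1.97e-06) without replicate 2 of 0% RPS. Ffar4 was the 1 gene called of 36 in the list for butyrate transport, sensing and oxidation (24 positive, median 0.055). As its ligands are long-chain fatty acids, this call is not one of butyrate handling, and no other gene of the list was called. Slc5a8, the sodium-coupled carrier of butyrate and lactate, was at 3144 ± 675 normalised counts at 0% RPS and 4595 ± 739.8 at 10% RPS (mean ± SD, n = 5), which was under the fold threshold (log2 fold change 0.55 ± 0.13, adjusted p = 0.0019).

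Retinoid genes moved both ways. Of 27 tested, 2 were higher and 2 lower (median -0.043). Rdh16 (chr10:127637001-127682434), a dehydrogenase that oxidises retinol, stood at 459, 397, 477, 364, and 275 normalised counts at 0% RPS and 681, 1006, 783.5, 611, and 879 at 10% RPS. Rdh16 did not overlap between the diets and rose by 1.01 ± 0.21 log2 units (DESeq2 adjusted p = 0.000625, edgeR adjusted p = 0.0308). Rdh9 (chr10:127612255-127628566), its neighbour and relative, stood at 3.29, 5.21, 15.5, 13.5, and 11.4 normalised counts at 0% RPS and 31.3, 17.6, 53.5, 28.1, and 35.8 at 10% RPS. Rdh9 was also separated by diet, though at counts near the bottom of the table, with a log2 fold change of 1.73 ± 0.41 (DESeq2 adjusted p = 0.00342, edgeR adjusted p = 0.0416). Its transcripts share 67.5% of their stretches with relatives, so its reads cannot be assigned with certainty. Adh1, the alcohol dehydrogenase that also oxidises retinol, was at 2689, 3775, 1799, 3161, and 2252 normalised counts at 0% RPS and 1539, 2497, 1429.8, 1839, and 1187 at 10% RPS. Adh1 overlapped, with replicate 2 the highest in each diet, and fell by 0.69 ± 0.21 log2 units (DESeq2 adjusted p = 0.0349, edgeR adjusted p = 0.108), a call that was lost without replicate 2 of 0% RPS (log2 fold change -0.54, adjusted p = 0.0905). Lrat, which stores retinol as esters, was not called (log2 fold change -0.59, adjusted p = 0.106).

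Genes of salt, mineral and nutrient transport moved singly. Of 48 salt, water and mineral transport genes, 3 were higher and 1 lower (median 0.11). Scara5 (chr14:65903844-66002275), a receptor that takes up ferritin, stood at 278, 286, 215, 210.3, and 214 normalised counts at 0% RPS and 324, 490.2, 438, 284, and 574 at 10% RPS. Scara5 overlapped at replicate 4 of 10% RPS only, which lay just under replicate 2 of 0% RPS, and its log2 fold change was 0.81 ± 0.18 (DESeq2 adjusted p = 0.000895, edgeR adjusted p = 0.0308). Trpm6, the channel through which magnesium is absorbed, was at 2434, 1074, 1905, 2281, and 1667 normalised counts at 0% RPS and 3494, 3424, 3128, 2748, and 2463 at 10% RPS. Trpm6 did not overlap between the diets, and replicate 2 was the lowest of 0% RPS (log2 fold change 0.70 ± 0.17, DESeq2 adjusted p = 0.00421, edgeR adjusted p = 0.0531). Scnn1b, a subunit of the epithelial sodium channel, was at 165, 222, 149, 159, and 153 normalised counts at 0% RPS and 193, 353, 272, 265, and 378 at 10% RPS. Scnn1b overlapped, since replicate 1 of 10% RPS lay under replicate 2 of 0% RPS, and rose by 0.79 ± 0.20 log2 units (DESeq2 adjusted p = 0.00821, edgeR adjusted p = 0.0599). Car1, a carbonic anhydrase, with the highest count of this list, was at 247218 ± 109729 normalised counts at 0% RPS and 381373 ± 78209 at 10% RPS (mean ± SD, n = 5) and was not called (log2 fold change 0.63, adjusted p = 0.131). Atp2b1, a calcium pump, passed the p threshold at a fold just under the limit (log2 fold change 0.57 ± 0.12, adjusted p = 0.000549). Fxyd6, a modulator of the sodium pump, was lower (log2 fold change -0.73, adjusted p = 0.0374) and lost the call without replicate 2 of 0% RPS (log2 fold change -0.44, adjusted p = 0.134).

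Of 35 nutrient solute carriers, 1 was higher and 2 lower. Slc2a6 (chr2:26911226-26918092), a carrier of the glucose transporter family, stood at 84.5, 75.0, 92.7, 101, and 93.3 normalised counts at 0% RPS and 135, 111, 213, 154, and 187 at 10% RPS. Slc2a6 did not overlap between the diets, with a log2 fold change of 0.83 ± 0.19 (DESeq2 adjusted p = 0.00218, edgeR adjusted p = 0.0363). Slc15a1 (chr14:121697033-121742845), the proton-coupled carrier of di- and tripeptides, stood at 197, 553, 165, 332, and 374 normalised counts at 0% RPS and 109.5, 106, 53.5, 167, and 64.8 at 10% RPS. Slc15a1 overlapped by a hair, where replicate 4 of 10% RPS met replicate 3 of 0% RPS, and fell by 1.69 ± 0.33 log2 units (DESeq2 adjusted p = 0.000139, edgeR adjusted p = 0.0295), the largest fall outside the 5 named above that was called in all 10 fits. Slc25a27, a mitochondrial carrier of the uncoupling protein family, was at 364, 288, 271, 393, and 408 normalised counts at 0% RPS and 196, 276, 248, 216, and 203 at 10% RPS. Slc25a27 overlapped slightly and fell by 0.60 ± 0.13 log2 units (DESeq2 adjusted p = 0.000752, edgeR adjusted p = 0.0307).

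Enzymes of aldehyde, purine and pyrimidine metabolism were among the rises. Akr1b7 (chr6:34389021-34400449), an aldose reductase-like enzyme that reduces aldehydes, stood at 134, 118, 81.8, 108, and 79.8 normalised counts at 0% RPS and 246, 359, 224, 224, and 171 at 10% RPS. Akr1b7 did not overlap between the diets and rose by 1.24 ± 0.21 log2 units (DESeq2 adjusted p = 2.27e-06, edgeR adjusted p = 0.0102). Gda (chr19:21368671-21450809), the guanine deaminase of purine breakdown, stood at 2276, 1557, 2634, 2130.4, and 2122 normalised counts at 0% RPS and 3346, 5467, 5209, 5849.7, and 4895 at 10% RPS. Gda was separated by diet with its lowest 10% RPS library well above 0% RPS, and the log2 fold change was 1.21 ± 0.24 (DESeq2 adjusted p = 0.00035, edgeR adjusted p = 0.0308). Upp1 (chr11:9067953-9086370), which splits uridine, stood at 506, 352, 544, 547, and 599 normalised counts at 0% RPS and 742, 773, 974, 1281, and 771 at 10% RPS. Upp1 did not overlap between the diets, with replicate 4 of 10% RPS the highest and replicate 2 of 0% RPS the lowest, and its log2 fold change was 0.83 ± 0.21 (DESeq2 adjusted p = 0.00651, edgeR adjusted p = 0.0638). Of the 52 aldo-keto reductases and xenobiotic enzymes tested 3 were higher and 2 lower (median 0.054): Akr1b7, Gda, and Akr1c18, a hydroxysteroid dehydrogenase (log2 fold change 0.96, adjusted p = 0.0379), against Inmt, a methyltransferase of indoleamines (log2 fold change -1.38, adjusted p = 0.00835), and Cyp2c68 (log2 fold change -1.30, adjusted p = 0.0302), which shares 37.3% of its stretches with related P450 genes and was not called without replicate 2 of 0% RPS (log2 fold change -1.01, adjusted p = 0.091). Ces1f, a carboxylesterase, passed the p threshold and not the fold (log2 fold change 0.53, adjusted p = 0.000661).

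**Figure D3:**
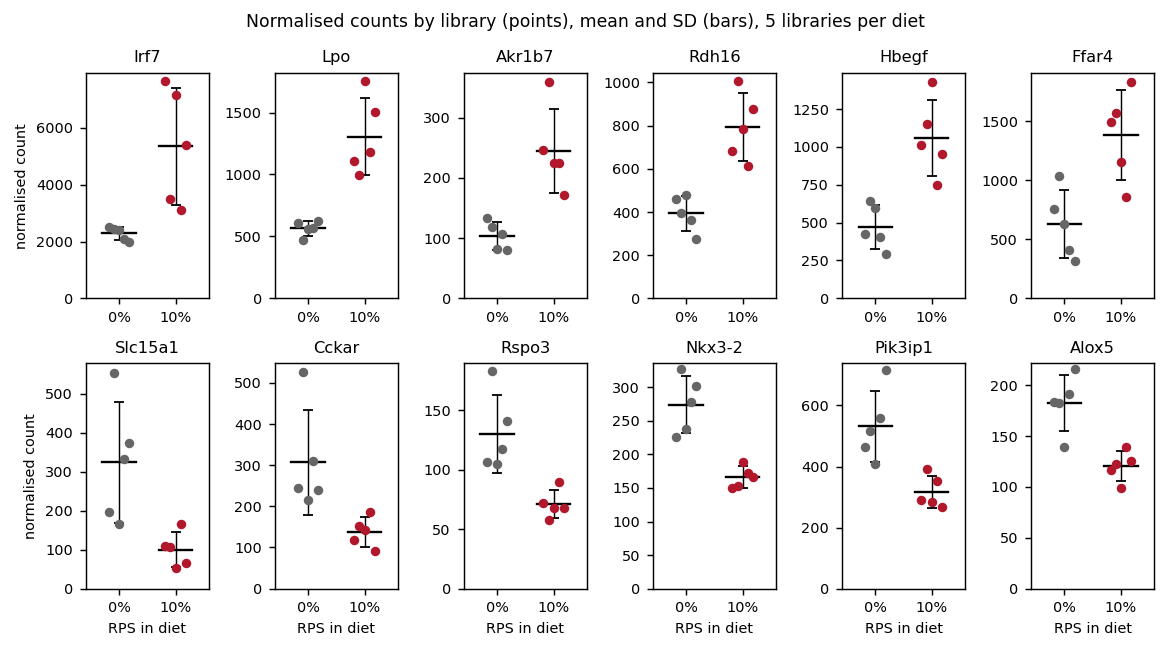
Normalised counts of 12 genes in each library at 0% RPS (grey) and 10% RPS (red), with the mean and SD of the 5 libraries per diet, each panel on its own linear axis from 0. The upper row holds rises, of which only Ffar4 overlaps between the diets, and the lower row holds falls, of which Slc15a1 and Alox5 overlap.

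Ligands and membrane proteins completed the rises. Hbegf (chr18:36637980-36649677), a ligand of the EGF receptor released in repair, stood at 426, 642, 599, 407, and 291 normalised counts at 0% RPS and 1012, 1149.6, 1429.8, 750.0, and 952 at 10% RPS. Hbegf did not overlap between the diets, and its log2 fold change was 1.16 ± 0.28 (DESeq2 adjusted p = 0.00449, edgeR adjusted p = 0.0634). It was the 1 called of 10 EGF receptor ligands and relatives, while Areg (log2 fold change 0.79, adjusted p = 0.465) and Ereg (log2 fold change 0.59, adjusted p = 0.323), ligands of the same receptor, were not called. Fam3c (chr6:22306519-22356242), a secreted cytokine-like protein, stood at 954, 544, 699, 761, and 662 normalised counts at 0% RPS and 1126, 947, 1479.8, 1074, and 1324 at 10% RPS. Fam3c overlapped by a few counts between replicate 2 of 10% RPS and replicate 1 of 0% RPS, and rose by 0.72 ± 0.13 log2 units (DESeq2 adjusted p = 1.7e-05, edgeR adjusted p = 0.0113). Tmem37 (chr1:119993339-120001804), related to calcium channel gamma subunits, stood at 474, 296, 205, 193, and 241 normalised counts at 0% RPS and 557, 561, 790.5, 330.4, and 529.6 at 10% RPS. Tmem37 overlapped through replicate 4 of 10% RPS and rose by 0.98 ± 0.24 log2 units (DESeq2 adjusted p = 0.0039, edgeR adjusted p = 0.0521). Ttyh1 (chr7:4122395-4139721), of the tweety family of membrane proteins, stood at 632, 429, 371, 378, and 375 normalised counts at 0% RPS and 756, 579.8, 1060.2, 553, and 1164 at 10% RPS. Ttyh1 overlapped because replicate 1 of 0% RPS was far above the other 4, and its log2 fold change was 0.91 ± 0.19 (DESeq2 adjusted p = 0.000615, edgeR adjusted p = 0.0308). Art2a (chr7:101201660-101210072), an ADP-ribosyltransferase of the cell surface, stood at 329, 199, 227, 248, and 214 normalised counts at 0% RPS and 449.7, 477, 357, 421, and 601 at 10% RPS. Art2a did not overlap between the diets, with a log2 fold change of 0.92 ± 0.15 (DESeq2 adjusted p = 1.21e-06, edgeR adjusted p = 0.00767). Gm33424 (chr13:53139967-53190603), a transcript with no known role, stood at 53.8, 26.03, 69.1, 49.4, and 36.3 normalised counts at 0% RPS and 194, 155, 224, 114, and 160.4 at 10% RPS. Gm33424 separated the diets widely for its level and rose by 1.85 ± 0.25 log2 units (DESeq2 adjusted p = 1.49e-09, edgeR adjusted p = 0.00292).

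The remaining rises were called in some but not all of the fits that leave out 1 library. The stress factor Atf3 did not overlap between the diets (log2 fold change 0.82, adjusted p = 0.0121) and was the 1 called of 21 genes of the amino acid starvation response, of which 17 were positive, among them Asns, the asparagine synthetase (log2 fold change 0.55, adjusted p = 0.0455). Cmah, which makes a sialic acid variant, was higher (log2 fold change 0.87, adjusted p = 0.00666), as was Adamts15, a matrix protease that did not overlap between the diets (log2 fold change 0.70, adjusted p = 0.0256). Gfap, the filament of enteric glia, was higher (log2 fold change 0.61, adjusted p = 0.00797) while the 3 other glial markers had negative log2 fold changes. Rab37, a GTPase of secretory vesicles, stood at 0.81 log2 units (adjusted p = 0.0454), and Rhod, a GTPase of endosomes, at 0.79 log2 units (adjusted p = 0.0372). Ikzf2, the transcription factor Helios, had 0.60 log2 units (adjusted p = 0.0418), and Ctla2a, a cysteine protease inhibitor, 0.86 log2 units (adjusted p = 0.0306). Gchfr, the regulator of tetrahydrobiopterin synthesis, had 0.78 log2 units (adjusted p = 0.0302), Fcho1, of endocytosis, 0.63 log2 units (adjusted p = 0.0133), and Myl7, a myosin light chain, 0.79 log2 units (adjusted p = 0.0466). Rpp25, a subunit of ribonuclease P, reached 0.79 log2 units (adjusted p = 0.0277) without overlap. Tmem253 (log2 fold change 0.62, adjusted p = 0.0193), 2210009P08Rik (log2 fold change 0.66, adjusted p = 0.00483) and Gm36640 (log2 fold change 0.77, adjusted p = 0.013) complete the list. The calls of Rab37, Myl7, Ikzf2 and Akr1c18 were lost without replicate 2 of 0% RPS.

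Among the falls, the peptide receptors Cckar and Tacr2 were called in all 10 fits. Of 22 neurotransmitter and peptide receptors, 2 were lower and none higher (median -0.17). Cckar (chr5:53855118-53865047), the cholecystokinin receptor, stood at 244, 526, 215, 311, and 241 normalised counts at 0% RPS and 118, 152, 143, 185, and 90.8 at 10% RPS. Cckar did not overlap between the diets, although replicate 2 of 0% RPS was far above its group, and fell by 1.16 ± 0.25 log2 units (DESeq2 adjusted p = 0.000895, edgeR adjusted p = 0.0314), or -0.87 log2 units (adjusted p = 0.00337) without that library. Tacr2 (chr10:62088061-62104627), the receptor of the tachykinin neurokinin A on smooth muscle, stood at 233, 509, 231, 279.5, and 290.3 normalised counts at 0% RPS and 239, 145, 133, 184, and 149 at 10% RPS. Tacr2 overlapped at replicate 1 of 10% RPS, and replicate 2 of 0% RPS was again the highest, with a log2 fold change of -0.86 ± 0.21 (DESeq2 adjusted p = 0.00543, edgeR adjusted p = 0.0505), or -0.61 log2 units (adjusted p = 0.016) without it. In the opposite direction Chrnb4, a nicotinic receptor subunit, was under the fold threshold with the smallest adjusted p of the uncalled members of the list (log2 fold change 0.48 ± 0.078, adjusted p = 1.21e-06).

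Single genes of mesenchymal signalling were lower. Rspo3 (chr10:29327285-29411876), which amplifies Wnt signals that maintain crypt stem cells, stood at 106, 183, 105, 117, and 141 normalised counts at 0% RPS and 72.0, 57.8, 67.4, 90.1, and 67.7 at 10% RPS. Rspo3 did not overlap between the diets and fell by 0.88 ± 0.22 log2 units (DESeq2 adjusted p = 0.00481, edgeR adjusted p = 0.0421). It was the 1 called of 22 stem cell and Wnt genes (median -0.094). Nkx3-2 (chr5:41917720-41921904), a homeobox factor of gut mesenchyme, stood at 226, 327, 237, 279, and 303 normalised counts at 0% RPS and 150.2, 153, 189, 172, and 166 at 10% RPS. Nkx3-2 did not overlap between the diets and was tight at 10% RPS, and its log2 fold change was -0.72 ± 0.18 (DESeq2 adjusted p = 0.00502, edgeR adjusted p = 0.0458). Gli1, the transcription factor and target of hedgehog signals, was at 138, 278, 205, 327, and 242 normalised counts at 0% RPS and 144, 152, 73.2, 174, and 137 at 10% RPS. Gli1 overlapped at the bottom of 0% RPS, where replicate 1 lay within the 10% RPS range, and fell by 0.80 ± 0.23 log2 units (DESeq2 adjusted p = 0.018, edgeR adjusted p = 0.0731). In the hedgehog and bone morphogenetic protein list these were the 2 lower of 26, with none higher and 19 negative (median -0.22, -0.18 without replicate 2 of 0% RPS).

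Extracellular matrix genes were nearly all on the negative side, and the median moved to about 0 without 1 library. Of 51 tested, 4 were lower and 1 higher, where 0.381% of all genes were lower and 0.536% higher. In this list 49 were negative, and the median was -0.22, which became 0.044 without replicate 2 of 0% RPS. The 22 smooth muscle contraction genes were all negative with 1 called, and their median went from -0.25 to -0.062. Beside them, the fibroblast markers summed to 10479 to 29557 normalised counts at 0% RPS and 11127 to 16214 at 10% RPS, with replicate 2 the highest, and the other 4 libraries of 0% RPS at 16541, 10479, 15337 and 14764. The part of the amount of mesenchyme in these falls was not tested beyond these values and a fit with a smooth muscle score per library, in which 126 genes were called (83 higher, 43 lower). Col23a1 (chr11:51180566-51474745), a collagen that spans the membrane, stood at 1000.5, 1497, 783, 863, and 967 normalised counts at 0% RPS and 779, 697, 446, 563, and 416 at 10% RPS. Col23a1 separated the diets by a hair and fell by 0.82 ± 0.18 log2 units (DESeq2 adjusted p = 0.00139, edgeR adjusted p = 0.0347), or -0.64 log2 units (adjusted p = 0.00477) without replicate 2 of 0% RPS. Ecm2 (chr13:49658236-49687964), a matrix protein, stood at 388, 541, 251, 344, and 356 normalised counts at 0% RPS and 227, 283, 178, 224, and 187 at 10% RPS. Ecm2 overlapped at replicate 2 of 10% RPS, and its log2 fold change was -0.77 ± 0.20 (DESeq2 adjusted p = 0.00665, edgeR adjusted p = 0.056), or -0.60 log2 units (adjusted p = 0.0229) without that library of 0% RPS. Aspn, a small proteoglycan that binds TGF-beta, was lower without overlap (log2 fold change -0.78, adjusted p = 0.0231), and lost its call without replicate 2 of 0% RPS (log2 fold change -0.54, adjusted p = 0.0822). Ogn, a proteoglycan of the same family, was under the fold threshold (log2 fold change -0.55, adjusted p = 0.0128). Pln, phospholamban of the calcium pump, was the smooth muscle gene called (log2 fold change -0.79, adjusted p = 0.0127), and 41.1% of its stretches are reverse copies of other transcripts.

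Other falls kept in all 10 fits were regulators inside cells. Cttnbp2 (chr6:18366477-18514842), which binds cortactin and microtubules, stood at 443, 758, 375, 527, and 488 normalised counts at 0% RPS and 229.5, 345, 238, 306, and 216 at 10% RPS. Cttnbp2 did not overlap between the diets and fell by 0.96 ± 0.20 log2 units (DESeq2 adjusted p = 0.000641, edgeR adjusted p = 0.0308). Dusp26 (chr8:31579380-31587075), a dual-specificity phosphatase, stood at 150.3, 218, 116, 174, and 208 normalised counts at 0% RPS and 115, 129, 77.9, 89.1, and 63.8 at 10% RPS. Dusp26 overlapped at replicate 2 of 10% RPS and replicate 3 of 0% RPS, with a log2 fold change of -0.86 ± 0.21 (DESeq2 adjusted p = 0.00396, edgeR adjusted p = 0.0431). Pik3ip1 (chr11:3280401-3292971), which restrains PI3-kinase, stood at 464, 518, 409, 558, and 715.4 normalised counts at 0% RPS and 291, 393, 284, 352, and 267 at 10% RPS. Pik3ip1 did not overlap between the diets and fell by 0.75 ± 0.15 log2 units (DESeq2 adjusted p = 0.000282, edgeR adjusted p = 0.0265), a value that leaving out replicate 2 of 0% RPS barely moved (log2 fold change -0.76, adjusted p = 0.000393). Coq8a (chr1:179992803-180029294), an atypical kinase of coenzyme Q synthesis, stood at 897, 628, 808, 1055, and 993 normalised counts at 0% RPS and 444, 718.1, 485, 617, and 444 at 10% RPS. Coq8a overlapped because replicate 2 of 0% RPS was low and replicate 2 of 10% RPS high, and its log2 fold change was -0.69 ± 0.18 (DESeq2 adjusted p = 0.00651, edgeR adjusted p = 0.0565).

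Alox5 and Alox5ap, the pair that starts leukotriene synthesis, were lower. Of 18 leukotriene and prostaglandin genes 3 were lower and none higher, with 14 negative and a median of -0.16 (-0.044 without replicate 2 of 0% RPS). Over all genes 0.381% were lower. Alox5, the 5-lipoxygenase that makes leukotriene A4, was at 183, 182, 139, 191, and 216 normalised counts at 0% RPS and 117, 122, 98.8, 139.5, and 126 at 10% RPS. Alox5 overlapped by 1 library on each side and fell by 0.59 ± 0.13 log2 units (DESeq2 adjusted p = 0.00111, edgeR adjusted p = 0.0307), and stood at -0.59 log2 units (adjusted p = 0.00202) without replicate 2 of 0% RPS. Alox5ap, which presents arachidonic acid to it, was at 103, 156, 66.4, 87.6, and 95.4 normalised counts at 0% RPS and 64.7, 67.9, 69.7, 61.0, and 67.7 at 10% RPS. Alox5ap overlapped, was tight at 10% RPS and had its highest value in replicate 2 of 0% RPS, with a log2 fold change of -0.61 ± 0.18 (DESeq2 adjusted p = 0.0289, edgeR adjusted p = 0.0707), and -0.41 log2 units (adjusted p = 0.086) without it. Abcc6, a transporter of the MRP family, was the third (log2 fold change -0.71, adjusted p = 0.0327). Ptgs1, the cyclooxygenase that is always on, was not called (log2 fold change -0.39, adjusted p = 0.0887). Alox5 was called in 6 and Alox5ap in 4 of the 10 fits that leave out 1 library. No gene of the list was called without replicate 5 of 0% RPS, replicate 1 of 10% RPS or replicate 3 of 10% RPS, and 1 was without replicate 4 of 0% RPS, replicate 5 of 10% RPS, or with edgeR.

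Several falls were called only with replicate 2 of 0% RPS in the fit. Insl5, a hormone of colonic L cells, was at 77.9, 458, 68.2, 34.2, and 54.9 normalised counts at 0% RPS and 44.9, 47.8, 49.99, 34.9, and 49.3 at 10% RPS. Insl5 showed no separation apart from that library, and its log2 fold change went from -1.61 log2 units (adjusted p = 0.0258) to -0.36 log2 units (adjusted p = 0.343) without it. Hoxa7, of the homeobox genes that mark position along the gut, was at 434, 1619, 423, 619.6, and 380.5 normalised counts at 0% RPS and 339, 344, 341, 379.8, and 310.2 at 10% RPS. Hoxa7 went from -1.02 log2 units (adjusted p = 0.0251) to -0.44 log2 units (adjusted p = 0.125) without replicate 2, and Hoxa5 from -0.83 log2 units (adjusted p = 0.0432) to -0.47 log2 units (adjusted p = 0.172). With Hoxa9, these were the 3 lower of 27 Hox and position genes (0.381% of all genes were lower). Rasd2, a small GTPase, went from -1.45 log2 units (adjusted p = 0.0157) to -0.58 log2 units (adjusted p = 0.139), and Ttr, the carrier of thyroxine and of retinol-binding protein, from -1.43 log2 units (adjusted p = 0.0301) to -0.71 log2 units (adjusted p = 0.183). Rnf152, a ubiquitin ligase, separated the diets with all 5 libraries (log2 fold change -1.45, adjusted p = 0.0194) and stayed large without replicate 2 but no longer passed (log2 fold change -1.11, adjusted p = 0.0669). Igkv5-48, an immunoglobulin light chain variable gene, had -1.74 log2 units (adjusted p = 0.0351), and -1.23 log2 units (adjusted p = 0.132) without replicate 2. Plasma cell markers summed to 77705 normalised counts in that library and to 26474 to 42641 at 10% RPS. The other libraries of 0% RPS, at 25195, 24276, 25400 and 24302, were all below 10% RPS. The median log2 fold change of these markers was -0.10, or 0.33 without replicate 2 of 0% RPS. Of the 47 lower genes, 26 had replicate 2 of 0% RPS as the highest of the 10 libraries. By the call itself a lower gene tends to have its highest library at 0% RPS, and the share over all genes was not counted.

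**Figure D4:**
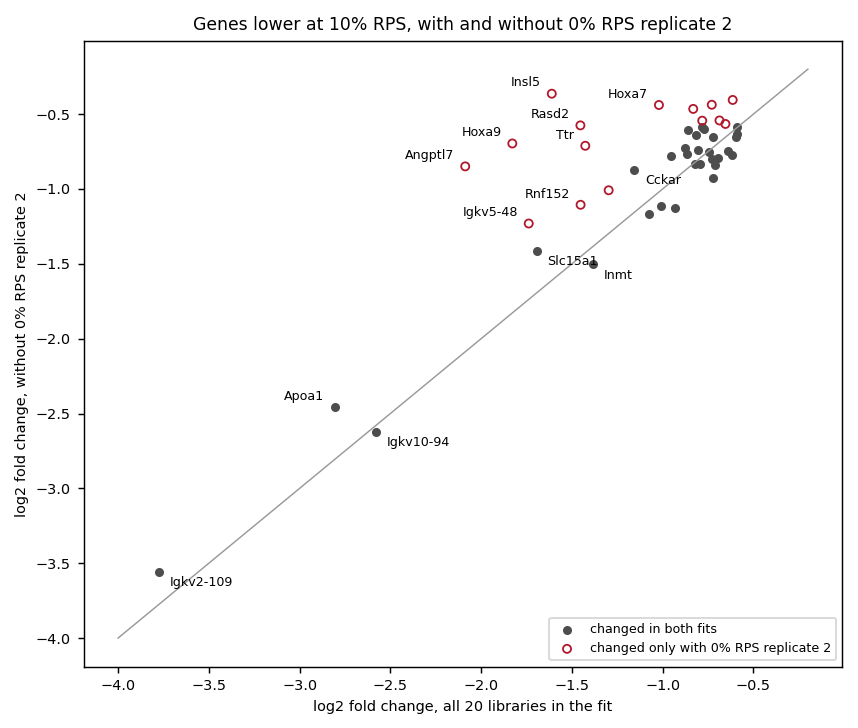
Log2 fold change of 45 of the 47 genes lower at 10% RPS in the fit of all 20 libraries (x axis) and without replicate 2 of 0% RPS (y axis), with the line of equal values. Open red circles, genes called only with that library, lie above the line, with Insl5, Angptl7 and Hoxa9 farthest from it.

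The remaining lower genes had varied roles. Tsku, a secreted inhibitor of Wnt and BMP signals, had -0.73 log2 units (adjusted p = 0.0386), with replicate 2 the lowest of 0% RPS, and was called in 3 of the 10 fits that leave out 1 library, with adjusted p of 1.32e-05 without replicate 2 of 0% RPS and up to 0.135 in the others (edgeR adjusted p = 0.112). Rprm, which arrests the cell cycle, did not overlap between the diets (log2 fold change -0.79, adjusted p = 0.0117). Lrrc17, a secreted leucine-rich protein, was at -0.82 log2 units (adjusted p = 0.0274), and Nrn1, neuritin, at -0.59 log2 units (adjusted p = 0.0193). Tmem86a, a lysoplasmalogenase, was at -0.93 log2 units (adjusted p = 0.0217), Ccdc57, of the centrosome, at -0.62 log2 units (adjusted p = 0.0259), and Thap3, a zinc finger protein with 1 high library in replicate 5 of 0% RPS, at -0.64 log2 units (adjusted p = 0.0231). Ypel4 was at -0.65 log2 units (adjusted p = 0.0238), and at -0.57 log2 units (adjusted p = 0.0539) without replicate 2 of 0% RPS. Or2m13, an olfactory receptor gene, was at -1.08 log2 units (adjusted p = 0.00651), and the transcripts Gm48898, which did not overlap (log2 fold change -0.73, adjusted p = 0.0109), and Gm44220 (log2 fold change -1.01, adjusted p = 0.00908) have no known role.

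Circadian clock genes varied widely between mice of the same diet. Of 17 clock genes 1 was called, which was lower, and 12 were negative (median -0.39, -0.51 without replicate 2 of 0% RPS). Dbp and Bmal1 are given as members of opposite phase and were chosen after their values were seen. Dbp, a clock output factor with a strong daily swing, was at 752.6, 175, 1625, 1602, and 2596 normalised counts at 0% RPS and 172, 318, 1228, 1873, and 958 at 10% RPS. Dbp thus spanned more than 10-fold within each diet, with replicate 2 of 0% RPS and replicate 1 of 10% RPS at the bottom (log2 fold change -0.57, adjusted p = 0.678). Bmal1, which peaks in the opposite phase, was at 852, 1615, 398, 667, and 263 normalised counts at 0% RPS and 1352, 1088, 674, 381, and 1125 at 10% RPS. Bmal1 was highest in the same 2 libraries in which Dbp was lowest, and the diets overlapped (log2 fold change 0.28, adjusted p = 0.779). Collection times are not given in the sources used here. When a clock score per library was added to the fit, 147 genes were called (87 higher, 60 lower). Of 107 named genes with an adjusted p in that fit, 94 kept the call and 13 lost it: Abcc6, Ccdc57, Ctla2a, Fcho1, Gfap, Ifit1, Nrn1, Rhod, Slc25a27, Thap3, Tmem86a, Tsku and Upk1b. Of these, Slc25a27 (-0.57 log2 units), Fcho1 (0.54), Gfap (0.52), Nrn1 (-0.47) and Ccdc57 (-0.40) still passed the p threshold and lost the call on the fold alone.

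**Figure D5:**
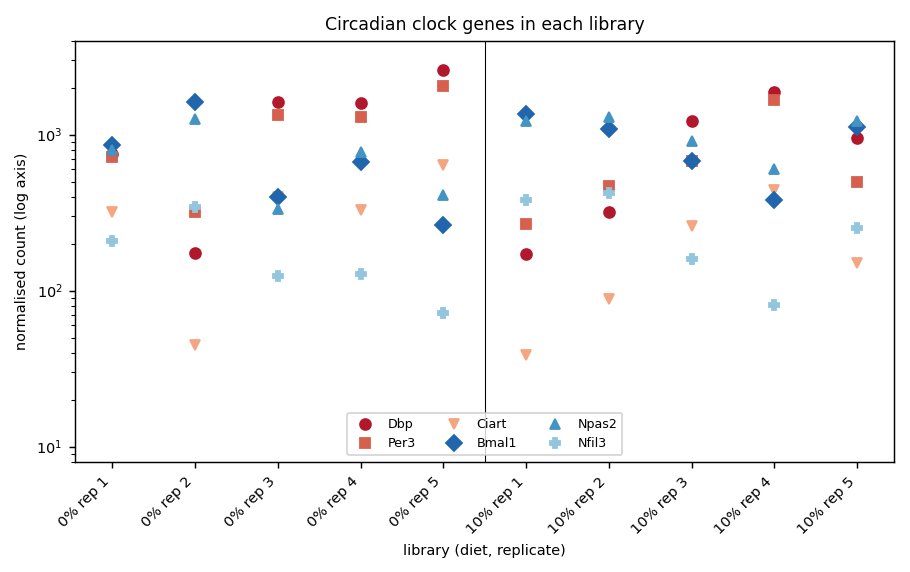
Normalised counts (log axis) of 6 clock genes in each of the 10 libraries. Dbp, Per3 and Ciart are low where Bmal1, Npas2 and Nfil3 are high, in replicate 2 of 0% RPS and replicates 1 and 2 of 10% RPS, and both diets hold libraries of both kinds.

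Of 39 oxidative phosphorylation genes 35 were positive and none was called (median 0.086), with Cycs, cytochrome c, the furthest by adjusted p (log2 fold change 0.51, adjusted p = 0.0117). Cholesterol synthesis had 22 of 24 positive and none called (median 0.16). Of 32 proliferation genes 28 were positive (median 0.18), but none was called higher and Rprm was called lower, and Mki67, the standard proliferation marker, was at 2538 ± 429 normalised counts at 0% RPS and 2924 ± 208 at 10% RPS (mean ± SD, n = 5) (log2 fold change 0.20, adjusted p = 0.535). Heat shock and protein folding genes had 18 of 23 positive and none called (median 0.24). Genes of a list are controlled together and are not independent, so such counts of signs describe these libraries. Of 14 genes of the IL-22, IL-17 and STAT3 axis, 1 (Fut2) was higher and 1 lower (median 0.21), while Stat3 (log2 fold change 0.39, adjusted p = 0.019) and Nfkbiz, a nuclear inhibitor of NF-kappaB (log2 fold change 0.51, adjusted p = 0.00959), passed the p threshold and not the fold. Of 20 enteroendocrine genes Ffar4 was higher and Insl5 and Ttr lower, and Pyy, the L cell peptide, was not called (log2 fold change -0.44, adjusted p = 0.111).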

How the data were processed

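RNA from 1 PC segment per mouse was made into stranded mRNA libraries and sequenced by the authors as single 50-base reads. In the CLC Genomics Workbench they removed bases under a quality of 30 and reads with more than 2 ambiguous bases, mapped the rest to GRCm39 and deposited raw counts per gene. The annotation, strand use and treatment of reads with several positions are not given in the sources used here. The table held 12701 genes, and 12682 were matched to GENCODE M39 for positions.

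Libraries were grouped by the treatment label, and all 20 entered 1 DESeq2 1.42.0 fit (R 4.3.3, Wald test, size factors by median of ratios, Benjamini-Hochberg adjustment over all 12321 genes given an adjusted p), with 10% against 0% RPS as contrast. Changed meant an unshrunken fold of at least 1.5 with an adjusted p of at most 0.05. Alternatives were edgeR 4.0.16 (quasi-likelihood test), TMM factors, count filters, a fit of both diets alone, leaving out each library, and a fit without the 3 libraries whose sample numbers stood apart (1 of 2% RPS, 2 of 10% RPS, none of 0% RPS). The clock and smooth muscle scores as covariates were chosen after seeing the data. The script was tested on simulated data. Stretches of 50 bases shared between transcripts and promoter motifs were counted with Python 3.11.15, pandas 2.3.3 and plots drawn with matplotlib 3.10.9.

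Named genes were all called genes and, per list, up to 3 uncalled members with the smallest adjusted p or the highest mean. Of the changed genes, 2 are counted but not reported by name here. Members and lists were chosen with earlier results of these data known. At 24160095 to 32871160 counts per library, 3 counts correspond to 0.0913 to 0.124 CPM. These limits cover counting error only. The p values measure the spread between mice of 1 study.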

Additional observations from a re-analysis of the deposited data

Results flagged for a closer look

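The 5 libraries of each diet were searched for each of the 111 changed genes that are named. In these groups 22 values lay far from the other 4 libraries of their diet, with a gap to the nearest above the 95% critical value of Dixon's test (0.71 for 5 values). For normally distributed values chance gives about 1 such value in 20 groups. With 2 groups searched for each of the 111 genes, a large part of the 22 would arise by chance. The genes were also picked by a call from these same values. Replicate 2 of 0% RPS held 12 of the 22 values. It was the high library for Angptl7 at 363 normalised counts, Hoxa5 at 716.4, Hoxa7 at 1619, Hoxa9 at 2422, Igkv5-48 at 226, Insl5 at 458, Rasd2 at 1076, Rnf152 at 964, Tacr2 at 509 and Ttr at 202, all lower at 10% RPS, and for Scnn1b at 222, which was higher. It was the low library for Reg3a, at 1.04.

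Replicate 3 of 0% RPS was the high library for Fut2 at 6166 normalised counts, Reg3b at 8323 and Reg3g at 2362. Replicate 5 of 0% RPS was high for Inmt at 189, Or2m13 at 349 and Thap3 at 2895, and replicate 1 for Ttyh1 at 632. At 10% RPS, replicate 2 was low for Gm36640 at 604, replicate 3 was high for Sec14l2 at 236, and replicate 5 was high for Ripk3 at 1468.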

How the results depend on the processing

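The counts of changed genes depended on the test and on single libraries. None of the called genes that are named reversed its direction in any alternative run on it. These genes were picked by their fold, and the alternatives reused most of the same libraries, so this is no test of direction. With edgeR 40 genes were called (28 higher, 12 lower), without the 3 libraries numbered apart 67 (41 higher, 26 lower), and without a fold threshold 578 (340 higher, 238 lower). The fit of both diets alone called 27 lower genes. Leaving out 1 library at a time gave 62 to 201 changed genes, 42 to 129 higher and 20 to 83 lower, with the most lower genes without replicate 3 of 0% RPS. Without replicate 5 of 0% RPS there were 43 higher and 24 lower genes, without replicate 3 of 10% RPS 23 lower, and without replicate 5 of 10% RPS 42 higher and 20 lower. TMM factors, the count filters and the outlier filter gave 110 to 116 genes. With the smooth muscle score, 91 named genes kept the call and 20 lost it, of which Alox5 (-0.57 log2 units), Casp4 (0.57), Ceacam1 (0.55), Muc13 (0.57), Pln (-0.58), Ripk3 (0.58), Alox5ap, Aspn, Fxyd6 and Ikzf2 kept an adjusted p under 0.05 and lost it on the fold alone. The cause was not tested in any of these cases. No paired analysis was possible because the labels give the diets no shared replicate numbers. Genes that share many 50-base stretches with others (Sprr2a2, Rdh9, Igkv10-94, Pln, Duoxa2, Cyp2c68, Gpd1 and H2-Q1, all over 30%) have uncertain counts.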

Other observations

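Adipocyte markers differed between mice of the 10% RPS diet. The 4 markers tested were all positive and none was called, with a sum of 1485 to 4541 normalised counts at 0% RPS and 2358 to 14568 at 10% RPS. Adipoq, the adipocyte hormone, stood at 396, 568, 16.4, 304, and 105 normalised counts at 0% RPS and 2003, 296, 481, 180.2, and 242 at 10% RPS. The high library was replicate 1 of 10% RPS, which also held 9052 normalised counts of Fabp4, the fatty acid carrier of adipocytes.

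Liver markers were highest in 1 library. The 4 tested summed to 1501 normalised counts in replicate 2 of 0% RPS, 107 to 223 in the other 4 libraries of 0% RPS and 57.2 to 169 at 10% RPS, and their median log2 fold change was -1.91, or -0.36 without that library. Ttr and Apoa1 were called lower, Ttr only with it, and Alb, albumin, stood at 81.2, 1085, 20.9, 42.2, and 48.7 normalised counts at 0% RPS and 19.8, 90.5, 97.6, 10.7, and 24.2 at 10% RPS. Alb was not called (log2 fold change -2.40, adjusted p = 0.225). The markers of enteric neurons, macrophages, fibroblasts and lymphatic endothelium were all negative and none was called. Without replicate 2 of 0% RPS the median of the macrophage markers went from -0.10 to 0.12 and that of the fibroblast markers from -0.23 to -0.058. Trpm5, the cation channel of tuft cells, passed the p threshold and not the fold (log2 fold change -0.49, adjusted p = 0.0478).

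Several genes under the fold threshold had small adjusted p values. Psmb8, a subunit of the immunoproteasome, stood at 0.52 ± 0.13 log2 units (adjusted p = 0.00626), and Cldn23, a barrier claudin, 0.54 ± 0.12 log2 units (adjusted p = 0.00141). Lgmn, a lysosomal protease, had 0.57 ± 0.15 log2 units (adjusted p = 0.0138). Tspan8, a tetraspanin, had 0.38 ± 0.084 log2 units (adjusted p = 0.00112), and Prom1, a membrane protein of epithelial progenitors, 0.34 ± 0.079 log2 units (adjusted p = 0.0021). In the opposite direction Smoc2, a stem cell marker, had -0.42 ± 0.12 log2 units (adjusted p = 0.0208), and Htr3a, a serotonin receptor subunit, -0.49 ± 0.15 log2 units (adjusted p = 0.0401).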
